A study of Mus musculus with 6 samples.

Results

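The regions described here carried an H3K27ac peak in Mfp2 knockout cells and in wild-type cells and had none in Bmal1 knockout cells. Peaks of the 3 deposited lists that shared at least 1 bp were merged on chromosomes 1 to 19, and a merged region was kept when it held at least 1 wild-type peak, at least 1 Mfp2KO peak and no Bmal1KO peak. This gave 1851 regions of 38990 in all. The regions were thus chosen by the deposited peak calls of all 3 lists, and the absence of a Bmal1KO peak is their definition, not a result. The cells were RAW264.7, a macrophage-like mouse line, grown without a stated stimulus. The groups were Bmal1KO (Bmal1 knockout), Mfp2KO (Mfp2 knockout) and wild type, with 1 ChIP library and 1 input library for each. The labels do not say if a knockout line came from 1 clone. With 1 library per genotype no difference between genotypes was tested, and each value describes these libraries.

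Acetylation of histone H3 at lysine 27 is laid down by the coactivators p300 and CBP at active promoters and enhancers. BMAL1 is a transcription factor of the circadian clock that binds E-box sequences as a dimer with CLOCK and can recruit such coactivators. MFP2, the product of Hsd17b4, takes part in the breakdown of very long and branched fatty acids in peroxisomes. In macrophages the clock is known to time the inflammatory response, and the series' title ties BMAL1 to inflammation through entry of MFP2 into the nucleus. The question addressed is where the acetylation calls of the knockouts part, with a call kept in the absence of MFP2 and lost from the list in the absence of BMAL1.

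The values are tags, the deposited ChIP reads of a peak scaled to 10 M tags per library. The ChIP libraries held 12.5 M tags in Bmal1KO, 15.8 M in Mfp2KO and 15.8 M in wild type, and 37.4%, 57.2% and 38.7% of them lay in peaks. A call needed 4-fold enrichment over the input of the same genotype in every list. The headers give a minimum of 9 tags per 500 bp window in Bmal1KO, or 7.18 after scaling, against 10 in Mfp2KO and 10 in wild type, or 6.34 and 6.33 after scaling. The lowest deposited tag values lie below these, at 5.58 in Bmal1KO, 5.39 in Mfp2KO and 5.07 in wild type, so the minimum is not a floor of the listed values. A p-value over input was also required. Absence from the Bmal1KO list means that the caller's criteria were not all met, not that the mark was absent. Tags outside called peaks were not analysed here, so the Bmal1KO level in these regions is unknown. All positions are in build mm39. Nearby genes are not named, since the annotation at hand is for build GRCm38. For the same reason macrophage marker genes and the knocked-out genes were not checked.

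Most of the regions were short and weakly acetylated in both lists that held them. Their Mfp2KO tags had a median of 26.0, with quartiles of 11.4 and 63.1 and a highest value of 729.7. Their wild-type tags had a median of 22.5, with quartiles of 12.7 and 40.5 and a highest value of 504.7. The 14443 regions called in every list had median tags of 145 in Bmal1KO, 260 in Mfp2KO and 162 in wild type. The median called length was 1005 bp in Mfp2KO and 1058 bp in wild type, against 2228 bp and 2925 bp in regions called in every list. In all, the 1851 regions held 1.73% of the Mfp2KO tags in peaks and 1.58% of the wild-type tags in peaks. A single window of 500 bp made up the whole Mfp2KO call in 401 regions, or 21.7%, and the whole wild-type call in 343, or 18.5%. In regions called in every list these shares were 3.76% and 1.36%. At the other end, 34 regions, or 1.84%, had at least 100 tags in both lists, against 57.3% of those called in every list.

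Enrichment over input lay near the authors' limit in many of them. The deposited fold over input had a median of 6.60 in Mfp2KO and 5.43 in wild type, against 11.6 and 8.88 in regions called in every list. In Mfp2KO 408 of the 1851 regions, or 22.0% (95% Wilson interval 20.2 to 24.0), were enriched less than 5-fold, and 679, or 36.7% (34.5 to 38.9), in wild type. Of regions called in every list, 6.04% were below 5-fold in Mfp2KO and 8.93% in wild type. Both lists were at 8-fold or more in 136 of the regions, or 7.35%, against 48.9% of those called in every list. These intervals and all others cover counting error only, save those of medians over regions.

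How often a Bmal1KO peak was missing followed the strength of the region. Of the 16294 regions called in Mfp2KO and wild type, 11.4% had no Bmal1KO peak. Ranked by the lower of the Mfp2KO and wild-type tags, the share was 48.3% (45.5 to 51.1) up to 10 tags. It was 34.3% (32.1 to 36.5) between 10 and 20 tags, 19.5% (17.8 to 21.3) between 20 and 40, and 9.13% (7.99 to 10.4) between 40 and 80. Above 80 tags the peak was rarely missing: 51 of 2613 regions between 80 and 160 tags, 8 of 3102 between 160 and 320, and 1 of 3409 above 320. The share also fell with width, with 77.7% (73.6 to 81.3) of regions up to 1000 bp without the peak against 1.06% (0.732 to 1.54) of those over 5000 bp. Width is not independent of the rule, because a Bmal1KO peak adds its own length to the merged region.

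The mirror case, a peak missing only in Mfp2KO, was more frequent overall and among weak regions. Of the 17216 regions called in Bmal1KO and wild type, 2773 had no Mfp2KO peak, or 16.1% (15.6 to 16.7). Ranked by the lower of the Bmal1KO and wild-type tags, 67.2% (64.9 to 69.4) had none up to 10 tags and 42.4% (40.3 to 44.5) between 10 and 20. From 40 to 80 tags the share was 8.63% (7.57 to 9.83), and the interval overlapped that of regions without a Bmal1KO peak. Above 320 tags it was 0 of 3058, which allows a share of up to 0.0981% when the limit is set at 3 counts and has a Wilson upper bound of 0.125%. The counting limits and depths of the knockout libraries differ, and their part in this difference was not tested.

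**Figure D1:**
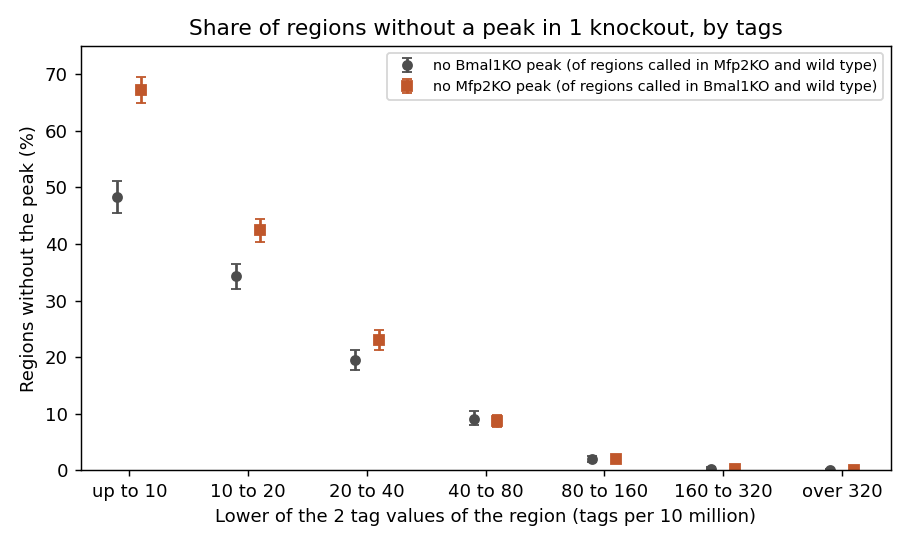
Share of regions without a peak in 1 knockout list (percent, with 95% Wilson intervals) by the lower of the region's tag values in the lists that hold it. Circles are regions called in Mfp2KO and wild type, of which 48.3% lacked a Bmal1KO peak up to 10 tags, and squares are regions called in Bmal1KO and wild type, of which 67.2% lacked an Mfp2KO peak up to 10 tags. From 40 tags on the intervals of the series overlap.

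Within a range of the lower tag value, the regions without a Bmal1KO peak differed in shape from those called in every list, although the higher tag value was not matched. Between 20 and 40 tags median tags were 41.2 in Mfp2KO and 31.3 in wild type without the peak, against 33.6 and 52.2 in regions called in every list. The 383 regions without the peak had a median width of 1942 bp, against 2418 bp for 1582 regions called in every list. The width of the latter includes the extent of their Bmal1KO peaks. Wild-type tags per kb of called length were 23.6 in them and 27.1 in regions called in every list, while the wild-type fold over input was 5.26 against 6.59. Mfp2KO tags per kb were higher in the regions without the peak, at 32.5 against 24.9. Between 80 and 160 tags median tags were 145 in Mfp2KO and 110 in wild type in the 51 regions without the peak, against 222 and 126 in regions called in every list. There the regions without the peak were the wider ones, at 3442 bp against 3035 bp, and had fewer tags per kb: 58.1 against 102 in Mfp2KO, and 36.0 against 44.0 in wild type. Wild-type input per kb was lower in the regions without the peak up to 10 tags, at 2.69 against 3.14. It was higher in the 5 ranges from 10 to 320 tags, for example 4.23 against 3.88 between 20 and 40 tags and 6.10 against 5.86 between 80 and 160.

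By the lower of its tag values, the strongest of the regions had 481 tags, against 268 in the second. It lay on chromosome 10 (31483257-31486934) and had 481 tags in Mfp2KO and 505 tags in wild type. Enrichment over input was 11.6-fold in Mfp2KO and 15.6-fold in wild type, and the peaks were 2780 and 3677 bp long. Of the 16294 regions called in both lists, 1541 had at least as many tags in both, itself included. That no other of these lacked a Bmal1KO peak follows from its rank, since it was picked as the strongest without one. Scaled to the library total, the Mfp2KO and wild-type values did not differ beyond counting error, with a log2 ratio of -0.07 (95% counting interval -0.21 to 0.08). When tags were divided by the total in all peaks of their list, or taken relative to regions called in every list, the interval lay below 0. Mfp2KO was thus the lower under each scaling, and only whether the interval held 0 depended on it. The nearest Bmal1KO peak was 292533 bp to the left and held 229 tags, and to the right the next one was 2339254 bp away. At the wild-type input of this region, the authors' 4-fold limit comes to 129 tags. Input tags are listed for called peaks only, so the Bmal1KO input at this position was not analysed here.

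**Figure D2:**
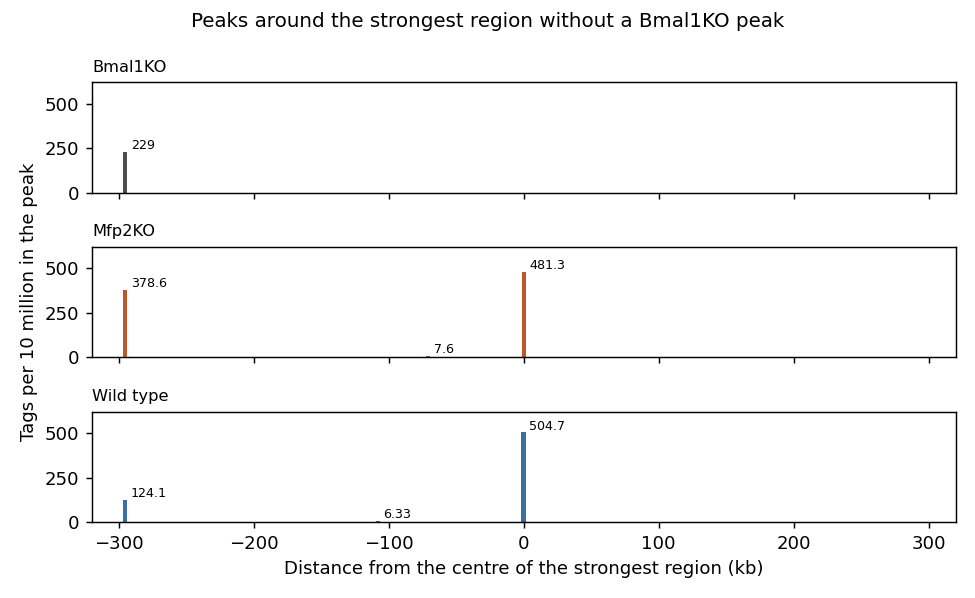
Peaks of the Bmal1KO, Mfp2KO and wild-type lists around the strongest region without a Bmal1KO peak, with distance from its centre in kb and tags per 10 M as bar height; narrow peaks are widened to be visible. The central peak has 481.3 tags in Mfp2KO and 504.7 in wild type and no bar in Bmal1KO, while the peak near -295 kb is present in every list, with 229, 378.6 and 124.1 tags.

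The other 14 of the 15 strongest regions, ranked by the lower of their tag values, lay on 9 chromosomes together with the first. The second lay on chromosome 2 (35145340-35151187), with 268 Mfp2KO tags over 5373 bp and 284 wild-type tags over 5847 bp, and a Bmal1KO peak of 8.78 tags lay 7370 bp away. The third lay on chromosome 3 (104576767-104581620), with 397 Mfp2KO tags and 210 wild-type tags. Its Mfp2KO peak was shorter than the wild-type one, 2839 bp against 4853 bp, so that tags per kb were 140 in Mfp2KO and 43.3 in wild type. The Mfp2KO fold over input there was 18.8 and the wild-type fold 4.95.

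Regions called in every list also had more Mfp2KO than wild-type tags at like strength. Their medians were 222 and 126 for a lower value of 80 to 160 tags, and 393.5 and 240.9 for 160 to 320. Scaled to the library total, Mfp2KO exceeded wild type beyond counting error in 11 of the 15 strongest regions without a Bmal1KO peak. In the other 4 the counting interval of the log2 ratio held 0. The like count was not made for regions called in every list. Of the 15, Mfp2KO was higher beyond counting error in 6 and lower in 4 when tags were divided by the total in all peaks of their list. It was higher in 7 and lower in 4 relative to the median of regions called in every list. The difference was greatest on chromosome 3 (126389402-126392223), with 653 tags in Mfp2KO and 137 in wild type, a log2 ratio of 2.25 (2.04 to 2.47). On chromosome 4 (140307363-140314606) the values were 730 tags in Mfp2KO and 187 in wild type, and 575 and 182 on chromosome 11 (100512996-100519492). The 4 regions whose interval held 0 were the first and second, one on chromosome 2 (92492866-92497593), with 186 tags in Mfp2KO and 197 in wild type, and one on chromosome 8 (105078067-105083154), with 140.0 and 143. In 11 of the 15 a Bmal1KO peak lay within 10 kb. The one on chromosome 11 with 575 Mfp2KO tags lay 431 bp from a Bmal1KO peak of 11.2 tags, and the one on chromosome 8 had a Bmal1KO peak of 523 tags 8478 bp away. Wild-type enrichment was below 8-fold in 12 of the 15.

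**Figure D3:**
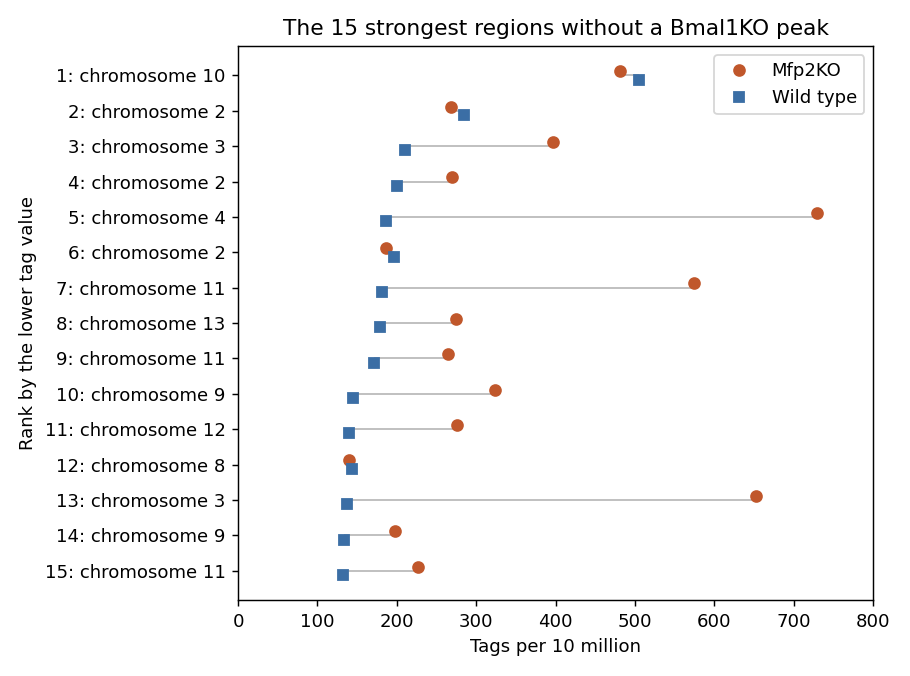
Tags per 10 M in Mfp2KO (circles) and wild type (squares) for the 15 regions without a Bmal1KO peak that had the highest lower value, with rank 1 at the top. The first lies near 500 tags in both lists, while regions 5, 7 and 13 have 729.7, 574.8 and 653 tags in Mfp2KO against 186.8, 181.7 and 137.1 in wild type.

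Across all 1851 regions Mfp2KO and wild-type tags differed widely and in both directions. The median ratio of Mfp2KO to wild-type tags was 1.19, with quartiles of 0.574 and 2.65, against 1.35 (0.685 and 2.26) in regions called in every list. When tags were divided by the total in all peaks of their list the median was 0.807, and relative to the median of regions called in every list it was 0.881, so the direction depends on the scaling. Mfp2KO was at least 2-fold higher in 605 regions, or 32.7%, against a background of 30.8% of the 16294 regions called in both lists. It was at least 2-fold lower in 389, or 21.0%, against a background of 18.6%. Both shares were near the background.

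Mfp2KO tags at least 4-fold higher were commoner than in regions called in every list, while for those at least 4-fold lower the intervals overlapped. Mfp2KO was at least 4-fold higher in 274 regions, or 14.8% (13.3 to 16.5), against 7.17% (6.76 to 7.60) of those called in every list and a background of 8.03%. It was at least 4-fold lower in 149, or 8.05% (6.90 to 9.38), against 6.72% (6.33 to 7.14) and a background of 6.87%. Divided by the total in all peaks, the counts were 154 higher and 268 lower, or 8.32% and 14.5%, against 2.47% and 12.5% of regions called in every list. Weak regions have few tags, and the wider counting spread this gives was not removed. Per kb of called length Mfp2KO was at least 2-fold higher in 413 regions, or 22.3%, below the background of 36.8%, and at least 2-fold lower in 18, or 0.972%, with a background of 1.52%.

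Regions at least 4-fold higher in Mfp2KO differed in both called length and tags per kb. Those at least 4-fold lower differed mainly in called length. In the 274 regions at least 4-fold higher in Mfp2KO, the median called length was 1596 bp in Mfp2KO and 634 bp in wild type, and 122 of them were a single 500 bp window in wild type. Median tags there were 90.3 in Mfp2KO and 13.3 in wild type, and tags per kb 58.4 and 20.2. Input per kb was also higher in Mfp2KO in these regions, at 7.44 against 4.04 in wild type, and its part in the difference was not tested. In the 149 regions at least 4-fold lower in Mfp2KO, the median length was 500 bp in Mfp2KO and 2543 bp in wild type, with 8.24 and 51.0 tags. Their tags per kb were closer, at 14.6 in Mfp2KO and 20.6 in wild type.

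**Figure D4:**
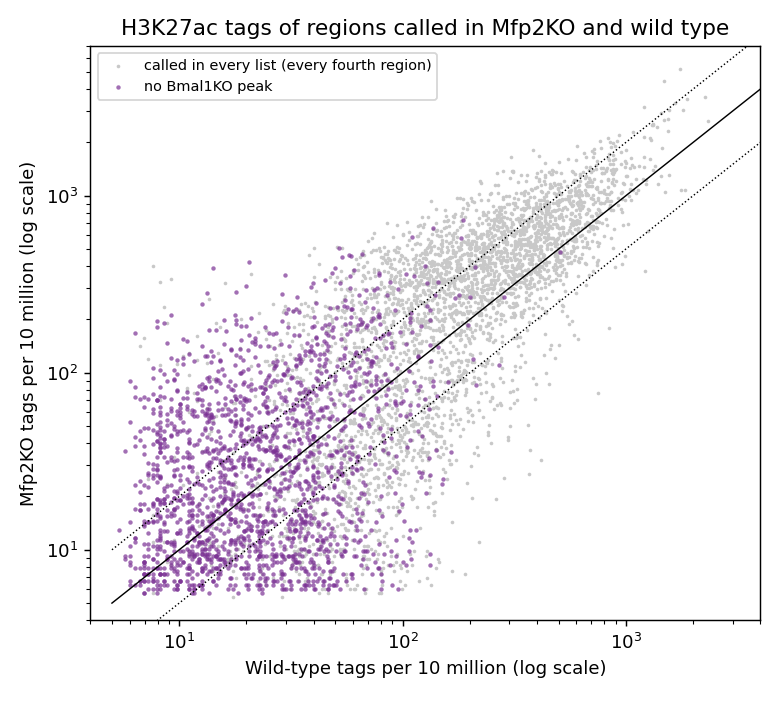
Tags per 10 M in Mfp2KO (vertical) and wild type (horizontal) of regions called in both lists, on log axes, with a solid line at equality and dotted lines at 2-fold. Regions without a Bmal1KO peak fill the low corner, with medians of 26.0 tags in Mfp2KO and 22.5 in wild type, while regions called in every list reach far higher.

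The extremes of this ratio were pairs of a broad and a minimal call. The highest ratio among regions with at least 20 tags in either list was on chromosome 2 (154444468-154446599), where Mfp2KO had 389 tags over 1973 bp and wild type 14.2 tags in 500 bp. The Mfp2KO fold over input was 18.5 and the wild-type fold 4.70, and per kb the ratio was 6.94. On chromosome 13 (112796494-112798575) Mfp2KO had 213 tags at 34.1-fold over input and wild type 9.18 tags at 9.09-fold. The others of the 5 highest lay on chromosome 19 (5137492-5139690), where Mfp2KO had 167 tags against 6.33 in wild type, on chromosome 4 (132700873-132704407), with 197 against 7.92, and on chromosome 8 (61084937-61086934), with 182 against 7.92. In those on chromosomes 19, 4 and 8 the wild-type fold over input was the higher. It was 18.8 against 6.68 in Mfp2KO on chromosome 19, 11.8 against 8.02 on chromosome 4, and 5.88 against 5.42 on chromosome 8. All 5 were a single 500 bp window in wild type.

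The 5 lowest ratios were long wild-type domains with a short Mfp2KO call. On chromosome 1 (123844228-123850938) Mfp2KO had 8.24 tags in 500 bp and wild type 132 tags over 6710 bp, which is 16.5 tags per kb in Mfp2KO and 19.7 in wild type. On chromosome 9 (123851157-123857722) the values were 9.51 tags in 645 bp in Mfp2KO and 133 tags over 6565 bp in wild type. The remaining 3, on chromosome 1 (95375854-95380784), chromosome 10 (96108447-96113143) and chromosome 14 (10015444-10018636), had 6.02, 6.34 and 6.02 tags in Mfp2KO against 95.3, 89.6 and 79.8 in wild type. Wild-type density in these 5 was 19.1 to 25 tags per kb, near the median of 20.1 of all 1851 regions. Their wild-type fold over input was 7.56 to 12.7, above the median of 5.43 of all 1851, and their Mfp2KO fold 5.28 to 24.4. Mfp2KO had the higher fold on chromosome 9 and at 95375854-95380784 of chromosome 1, and wild type in the others.

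In most regions the shorter of the Mfp2KO and wild-type calls lay largely inside the longer one. Some overlap is fixed by the rule, and a 500 bp call inside a far longer one counts in full. The share was not computed for regions called in every list. At least 90% of the shorter call lay inside the other in 1087 regions, or 58.7%, while 274, or 14.8%, shared less than 50% and 32 shared less than 10%. The Mfp2KO call was the longer in 821 regions and the wild-type call in 936, with 94 of equal length. Regions called in every list were more lopsided, with the wild-type call longer in 78.8%.

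The regions mostly lay close to Bmal1KO peaks. The median distance to the nearest one was 7940 bp, with quartiles of 2949 and 20826 bp, and 1053 regions, or 56.9% (54.6 to 59.1), had one within 10 kb. The 2773 regions missing only in Mfp2KO had a median of 10113 bp to the nearest Mfp2KO peak, with 49.8% (47.9 to 51.7) within 10 kb. A Bmal1KO peak lay within 1000 bp of 161 regions, or 8.70%. At the edge of the rule, a region on chromosome 12 (112839565-112840492), with 60.8 tags in Mfp2KO and 11.7 in wild type, lay 2 bp from a Bmal1KO peak and was counted as lacking it. On chromosome 9 (106220072-106222271) an overlap of 1 bp with a Bmal1KO peak of 23.1 tags was enough for a region with 11.4 tags in Mfp2KO and 12 in wild type to be counted as called in every list. There were 13 regions with a gap of at most 50 bp and 11 every-list regions whose Bmal1KO overlap was at most 50 bp.

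A few of the regions lay far from any Bmal1KO peak. Among the 646 with at least 20 tags in both lists, the farthest was on chromosome 9 (28313993-28316172), 1292537 bp from the nearest one, with 60.5 tags in Mfp2KO and 38.6 in wild type. Its enrichment was 4.85-fold in Mfp2KO and 4.10-fold in wild type, both close to the limit, and the peaks shared 27.1% of the shorter. The chromosome 3 region with 653 Mfp2KO tags followed at 953328 bp, and a neighbour on the same chromosome (126622915-126626293), with 34.9 tags in Mfp2KO and 59.2 in wild type, was 719258 bp away. A region of chromosome 13 (88969139-88970877) was 915730 bp away and held 69.1 tags in Mfp2KO and 92.8 in wild type. The fifth, on chromosome 12 (29986101-29990020), was 642888 bp from a Bmal1KO peak and had 586 Mfp2KO tags at 16.0-fold over input against 110 wild-type tags at 4.53-fold.

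Between one Bmal1KO peak and the next, 1547 of the regions were the only such region, 123 stretches held 2, 14 held 3 and 4 held 4. The number expected to be alone for regions of this frequency was not computed, so these counts are description only. Being alone does not mean that the stretch was short. That around the strongest region reached 292533 bp to its left and 2339254 bp to its right. The shortest of the 4 stretches with 4 regions, named after their values were seen, spanned 56.4 kb of chromosome 2 (170017382-170073743). Its regions had 92.8, 77.0, 101 and 20 tags in Mfp2KO and 40.8, 34.2, 23.1 and 10.4 in wild type, so that Mfp2KO was higher in each. Another, on the same chromosome (174515920-177598410), spanned 3082 kb, and its 4 regions had 117, 102, 124 and 145 tags in Mfp2KO against 19.3, 19.3, 13.0 and 15.8 in wild type. The remaining stretches lay on chromosome 2 (133286072-134347323), where Mfp2KO had 6.34 to 36.4 tags and wild type 17.7 to 93.1, and on chromosome 6 (92192603-94259281), where Mfp2KO had 13.3 to 20.9 and wild type 13.6 to 50.3. In the order given, the 4 stretches also held 1, 6, 0 and 0 regions called in Mfp2KO alone, against 0, 0, 3 and 2 called in wild type alone.

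The regions were spread over all 19 chromosomes. Counts went from 45 on chromosome 18 to 172 on chromosome 2. As a share of regions called in Mfp2KO and wild type, the lowest was 9.005% (7.02 to 11.5) on chromosome 12 and the highest 14.0% (11.7 to 16.6) on chromosome 15. The intervals of 18 of the 19 chromosomes held the overall 11.4%, the exception being chromosome 15. The median ratio of Bmal1KO to wild-type input per kb in regions called in every list lay between 0.949 and 1.04 over the chromosomes, and was 0.999 on chromosome 15.

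On a finer scale, of the 1767 windows of 1 Mb with a region called in Mfp2KO and wild type, 934 held at least 1 of the regions and 47 held 5 or more. The window with most, from 119 to 120 Mb of chromosome 11, held 10 among 30 regions called in Mfp2KO and wild type, or 33.3% (19.2 to 51.2). Their tags had a median of 37.7 in Mfp2KO, up to 364, and of 37.2 in wild type, up to 78.8. From 115 to 116 Mb of chromosome 6 it was 8 of 23, or 34.8% (18.8 to 55.1), with medians of 51.7 tags in Mfp2KO and 29.1 in wild type. From 27 to 28 Mb of chromosome 17 it was 8 of 30, or 26.7% (14.2 to 44.4), with medians of 65.5 and 31.4. These windows were picked as those with most regions of all 1767, which the intervals do not allow for.

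Regions called in every list had lower Bmal1KO tags where they lay near a region without a Bmal1KO peak. The rule bears on these neighbours, because a Bmal1KO peak long enough to reach the region would have merged with it. Near neighbours are thus those whose Bmal1KO call stopped short, and the part of this in the values was not tested. The libraries are also the same, so the values are given with no test. Within 10 kb, 1068 such neighbours had a median log2 ratio of Bmal1KO to wild-type tags of -0.48, and 69.9% were lower in Bmal1KO. The median was -0.29 between 10 and 50 kb, -0.21 between 50 and 100 kb, and -0.13 beyond 250 kb, where 55.7% of 5908 were lower. Median tags of the nearest neighbours were 104 in Bmal1KO and 158 in wild type, against 153 and 161 beyond 250 kb. The median log2 ratio of Mfp2KO to wild type was 0.31 within 10 kb and 0.46 beyond 250 kb. Per kb of called length the Bmal1KO medians were -0.06 and 0.11, so that near minus far was -0.17 in place of -0.35. In 5 equal groups of neighbours by wild-type tags, near minus far lay between -0.59 and -0.14 for Bmal1KO, and between -0.64 and 0.10 for Mfp2KO. Bmal1KO input per kb was 0.964 times wild type within 10 kb and 0.990 times beyond 250 kb.

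Low Bmal1KO tags nearby were not particular to regions missing only in Bmal1KO. Within 10 kb of a region missing only in Mfp2KO, every-list regions had a median log2 ratio of -0.50 in Bmal1KO and -0.08 in Mfp2KO, each to wild type. Beyond 250 kb of one the medians were -0.08 in Bmal1KO and 0.59 in Mfp2KO. The direct ratio of Bmal1KO to Mfp2KO tags differed in opposite directions, which did not hold per kb. It was -0.59 within 10 kb of a region missing only in Bmal1KO and -0.44 beyond 250 kb, but -0.34 and -0.53 around regions missing only in Mfp2KO. Both knockout ratios are over the same wild-type library, and both kinds of region need a wild-type peak, so they are not independent. Per kb of called length the Bmal1KO to Mfp2KO ratio was -0.50 within 10 kb of a region missing only in Bmal1KO and -0.54 beyond 250 kb. The intervals of these medians over regions overlapped, at -0.55 to -0.44 and -0.56 to -0.52, so no direction is read from them. Around regions missing only in Mfp2KO the per kb values were -0.38 and -0.59, with intervals of -0.42 to -0.32 and -0.61 to -0.56.

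**Figure D5:**
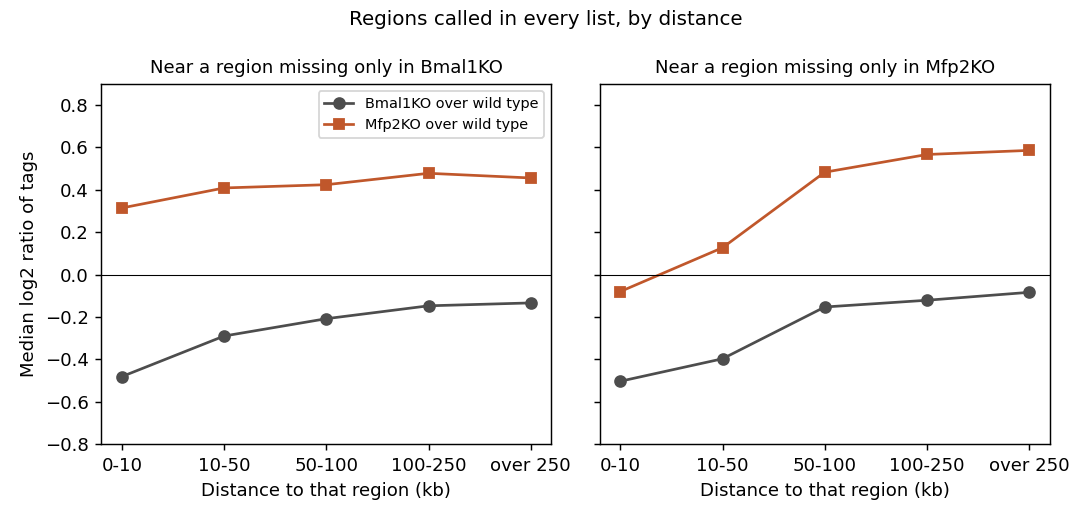
Median log2 ratio of tags, Bmal1KO over wild type (circles) and Mfp2KO over wild type (squares), in regions called in every list, by distance in kb to the nearest region missing only in Bmal1KO (left) or only in Mfp2KO (right). On the left the Bmal1KO line lies at -0.48 within 10 kb and -0.13 beyond 250 kb, and on the right the Mfp2KO line lies at -0.08 and 0.59.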

How the data were processed

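The 6 libraries, an H3K27ac ChIP (antibody ab4729) and an input of each genotype, were grouped by their labels. They were deposited as 3 peak lists, 1 per genotype, with no pooling. HOMER findPeaks made the lists in histone style with the matching input as control, per the file headers. The submitters' processing notes name HOMER 5.1, MACS3 3.0.3, Picard 3.4.0, SAMtools 1.23, BWA 0.7.19-r1273, fastp 1.0.1 and build mm39, without a role for each. No source used here states how duplicate reads were handled.

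Tags are a signal, counted by the authors per peak and scaled to 10 M per library, and deposited input tags are a signal brought to the same scale here. The deposited fold over input is, per the file headers, a ratio corrected for depth. The deposited p-value against input was not used beyond the authors' own threshold. The deposited score has no stated formula and was used only to shorten lists.

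Tags of all peaks of a list in a merged region were summed, and the highest fold was kept. Python 3.11.15 with pandas 2.3.3, NumPy 2.4.6 and SciPy 1.17.1 was used, and merging and distances were tested on simulated peaks. Shares have 95% Wilson intervals, and log2 ratios of single regions have exact binomial counting intervals. Reads without molecular identifiers are not independent molecules, so these cover counting error only. Scaling to the library total does not correct for the share of tags in peaks.

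The regions and comparisons were chosen with earlier results of these data known. Named regions are the 15 with the highest lower tag value, the 5 farthest from a Bmal1KO peak, the 5 highest and 5 lowest ratios and the 3 windows of 1 Mb with most regions. Gene lists, start sites, E-boxes and cell type markers were planned and not applied, and no sequence is printed, for want of an annotation and genome of build mm39 here.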

Additional observations from a re-analysis of the deposited data

How the results depend on the processing

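The number of regions, 1851, stayed within 1.5 times under 8 of 11 alternatives, between 1513 and 2227. It was 1159 when a Bmal1KO peak within 5000 bp counted as present, 443 when 6-fold over input was asked of Mfp2KO and wild type alone, and 646 with at least 20 tags in both. The share without a Bmal1KO peak, 11.4%, came to 10.5% when peaks had to share 50% of the shorter, 10.4% and 7.11% when a Bmal1KO peak within 1000 or 5000 bp counted, and 10.7% with lists of equal length by tags. It was 13.9% with 6-fold asked of all lists, 4.06% with 6-fold asked of Mfp2KO and wild type alone, and 4.86% with at least 20 tags in both. Counting near Bmal1KO peaks as present lowers both values by construction, and dropping weak regions lowers the number. For the other changes of the share the cause was not tested. The median Mfp2KO to wild-type ratio, 1.19, turned below 1 at 0.807 when divided by tags in all peaks and at 0.881 relative to regions called in every list, and was 1.24 per kb and 1.14 with 5 tags added. The per kb value and that over 5 groups of wild-type tags for the neighbours, and the other scalings of the 15 strongest regions and of the 4-fold counts, were chosen after seeing the data. The alternatives for start sites and E-boxes were not run. No paired analysis was possible because each genotype had 1 ChIP library. A Bmal1KO level below the limit of its list could not be measured, and regions near 10 tags carry the widest counting error.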
